A study of Homo sapiens with 3 samples.

Results

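Claudins are membrane proteins that join neighbouring epithelial cells at the tight junction, and 9 of them were followed here in DLD1 cells, an established human colorectal cancer cell line, with and without the gene BEX2. The 9 genes, CLDN1, CLDN2, CLDN3, CLDN4, CLDN7, CLDN12, CLDN15, CLDN16 and CLDN23, were found by Ensembl identifier among the 60504 genes of the expression table, and a further 15 claudins were used for comparison. The list was selected on expression values of these same libraries, in which CLDN2 was already known to be among the lowest genes of both knockout clones, so the values below are a description and no test was made on them. RNA-Seq was done on total RNA of 3 libraries: 1 from DLD1 control cells, labelled wild type, and 1 each from clone 1 and clone 2 of BEX2-/- DLD1 cells, made by CRISPR/Cas9 editing and screened by sequencing. The labels name no treatment for any of them. Each clone is a single edited line, and the control was sequenced once, so the spread among control cells is unknown and the spread between the clones includes any difference that a clone carried from its founder cell. Both clones were set against the same control library.

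Claudins bind each other within and between cells and thereby form the seal between epithelial cells. Some members tighten this seal, while others form channels that let small cations, and in part water, pass between the cells. CLDN1, CLDN3, CLDN4 and CLDN7 are mainly known as sealing claudins, and CLDN2, CLDN15 and CLDN16 are known for cation pores. In the intestine CLDN2 is found mainly in the crypts and CLDN15 along both crypts and villi. CLDN12 and CLDN23 were put in neither class.

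CLDN2 was the only 1 of the 9 claudins that was at least 2-fold lower in both clones, and none was at least 2-fold higher in both. Its level fell from 5.39 FPKM in the control to 0.700 FPKM in clone 1 and 0.916 FPKM in clone 2, where FPKM counts fragments relative to exon length and library size. The sealing claudins CLDN4 and CLDN7 and the pore-forming CLDN15 stayed within 1.5-fold of the control in both clones. CLDN3 was close to the control in clone 1 and lower in clone 2, and CLDN1 was lower in both clones at a level near 1 FPKM. In RNA of a whole culture, fewer cells that express a claudin and less RNA per cell cannot be told apart.

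The depth, recovered from the step size of low values, was between 35593989 and 47722374 reads, with clone 1 the shallowest. Reads per gene and 95% intervals below come from this recovery (exact Poisson for a level, exact conditional for a ratio) and cover counting error only, not differences between cultures. BEX2 was listed at 0 in all 3 libraries, so its mRNA gave no check of the labels. The authors reported relatively high BEX2 protein in DLD1 cells and checked the knockout by western blot. The 0 in the control is therefore not read as absence of BEX2, and its origin was not tested. Taken as up to 3 reads, a count of 0 allows 0.0538 FPKM of BEX2 in the control. The keratin genes KRT8, KRT18 and KRT19 and EPCAM were abundant in every library, with EPCAM at 265 FPKM in the control, 282 FPKM in clone 1 and 220 FPKM in clone 2. The 8 markers of blood, endothelial and stromal cells were each below 0.1 FPKM in every library, summing to between 0.121 and 0.227 FPKM, and the blood cell marker PTPRC and the collagen gene COL3A1 were at 0 throughout. Other epithelial markers were not uniform. KRT20 was 18.9 FPKM in the control, 117 FPKM in clone 1 and 0.931 FPKM in clone 2, and VIL1 was 3.61, 13.2 and 0.221 FPKM. KRT20 and VIL1, which mark differentiated intestinal cells, thus lay above the control in clone 1 and below it in clone 2, whereas CLDN2 lay below it in both. Their part in the claudin values was not tested.

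CLDN2 (ENSG00000165376) forms channels for sodium and water between cells. In GRCh38 the gene runs from 106900164 to 106930861 on chromosome X, plus strand, and has 3 annotated transcripts with 3410 nt of merged exons. The 250 bases before its 2 RefSeq start sites (GRCh38.p14) are shown because these stretches lie beside the transcript that differed most among the claudins, together with those of CLDN15, the other expressed pore former, and CLDN4, a sealing claudin whose level was close to the control. Capitals mark matches to the short motifs described next, and each sequence ends at the base before the start site.
CLDN2 first start, chrX:106899914-106900163, plus strand: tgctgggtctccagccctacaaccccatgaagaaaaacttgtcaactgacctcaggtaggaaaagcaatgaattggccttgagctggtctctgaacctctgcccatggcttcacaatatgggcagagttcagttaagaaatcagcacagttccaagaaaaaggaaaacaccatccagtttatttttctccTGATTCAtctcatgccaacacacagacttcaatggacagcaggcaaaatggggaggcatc
CLDN2 second start, chrX:106918110-106918359, plus strand: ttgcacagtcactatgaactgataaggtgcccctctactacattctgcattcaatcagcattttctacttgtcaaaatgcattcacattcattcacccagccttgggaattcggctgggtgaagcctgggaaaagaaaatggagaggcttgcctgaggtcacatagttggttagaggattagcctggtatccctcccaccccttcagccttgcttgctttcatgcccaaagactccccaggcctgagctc
CLDN15, chr7:101237803-101238052, minus strand: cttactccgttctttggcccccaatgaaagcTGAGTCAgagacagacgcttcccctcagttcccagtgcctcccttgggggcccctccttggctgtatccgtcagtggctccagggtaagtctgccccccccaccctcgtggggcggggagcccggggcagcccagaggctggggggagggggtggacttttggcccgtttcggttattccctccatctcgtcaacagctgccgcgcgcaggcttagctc
CLDN4, chr7:73830746-73830995, plus strand: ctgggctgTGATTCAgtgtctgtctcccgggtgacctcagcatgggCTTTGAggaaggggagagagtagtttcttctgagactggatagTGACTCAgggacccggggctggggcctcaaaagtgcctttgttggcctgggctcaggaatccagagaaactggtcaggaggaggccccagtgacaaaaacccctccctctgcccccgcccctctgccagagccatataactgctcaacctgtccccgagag

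Letters searched on both strands included TGANTCA for AP-1, CTTTGA for TCF/LEF, TTTATG for CDX, CAGGTG for a SNAI E-box and GACCACCCA for GLI. CLDN2 held TGANTCA once, 60 bases before its first start, and none of the other motifs given here in either window. CLDN4 held TGANTCA at 242 and 161 bases and CTTTGA at 204 bases before its start, and CLDN15 held TGANTCA at 219 bases. CLDN16 also held TGANTCA, 246 bases before its first RefSeq start, in the window chr3:190290111-190290360. This motif occurred in 6.57% of all 35116 RefSeq windows of the same length, and CTTTGA in 11.2%. The window before the second start of CLDN7 held CAGGTG, found in 17.5% of windows, at 174, 135, 20 and 9 bases before the start. GACCACCCA (0.199% of windows) and TTTATG (9.64%) were in none of the windows of the 8 claudins that had a RefSeq entry. The shorter GACCACCC, added after the longer form had been searched and contained in it, was in 0.849% of windows and stood 153 bases before the start of CLDN1.

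The control library had 872 reads of CLDN2, clone 1 had 85 and clone 2 had 149. The control level of 5.39 FPKM (95% interval 5.04 to 5.76) lay far above those of both clones, at 0.559 to 0.866 FPKM in clone 1 and 0.774 to 1.07 FPKM in clone 2, while the intervals of the clones overlapped each other. The mean of the clones was 0.808 FPKM ± 0.152 (SD, n = 2). CLDN2 was 7.69-fold lower in clone 1 (95% interval 6.15 to 9.73) and 5.88-fold lower in clone 2 (4.94 to 7.05). Clone 2 stood at 1.31 times clone 1, with an interval of 0.995 to 1.73 that includes equal levels.

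**Figure D1:**
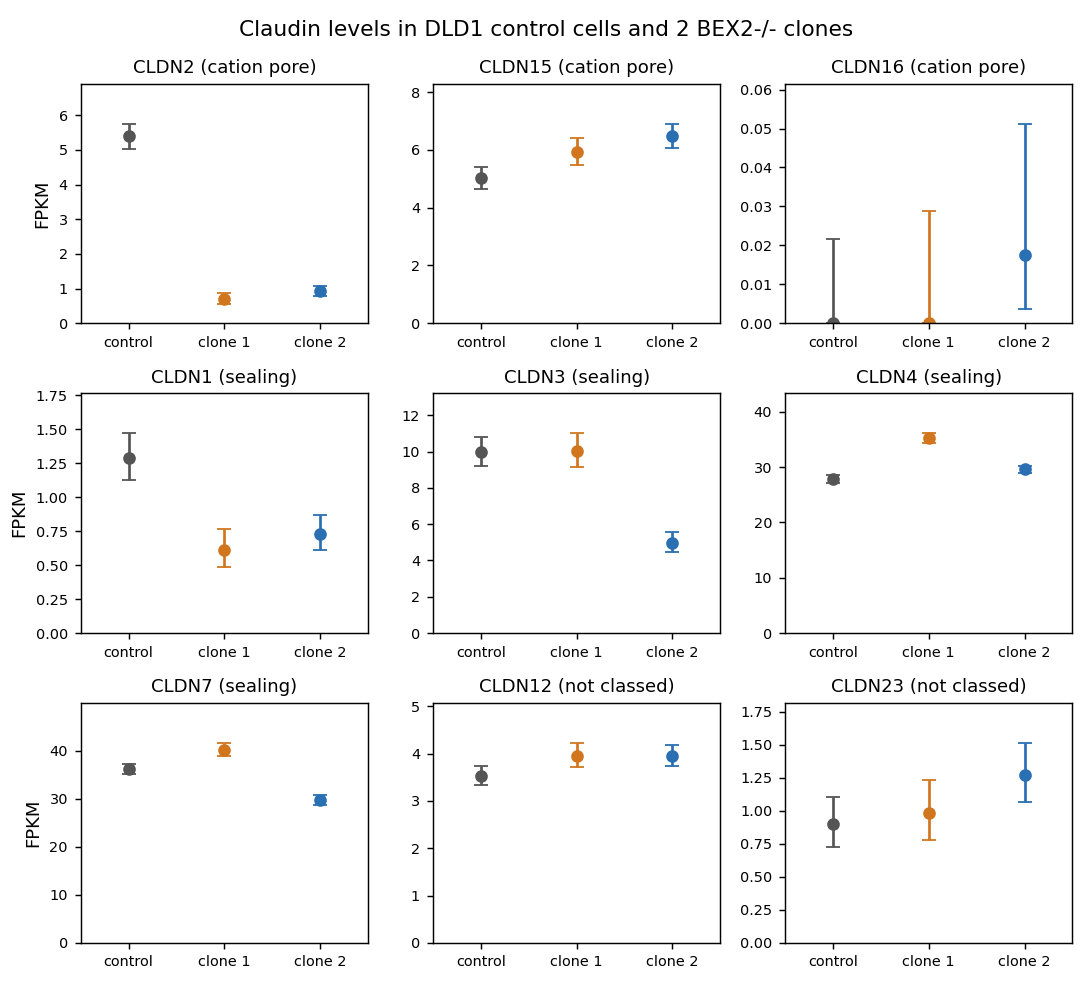
Level of each of the 9 claudins (FPKM, linear axis from 0, a scale of its own in each panel) in DLD1 control cells, clone 1 and clone 2, 1 library each; bars are exact Poisson 95% intervals of the recovered reads. CLDN2 falls from 5.39 FPKM in the control to 0.700 and 0.916 FPKM in the clones, and CLDN15, CLDN4 and CLDN12 lie at or above the control in both.

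For comparison with other genes, ratios were taken as log2(FPKM + 1), a scale that understates changes of low genes, and a gene was counted as tested, meaning that its ratios were held against the 2-fold threshold, if the control and the averaged clones together gave a mean of 1 FPKM or more. Of the 9 claudins, 7 met this, with CLDN23 just inside at 1.02 FPKM, CLDN1 just outside at 0.981 FPKM and CLDN16 near 0. CLDN2 met it through its control value, since neither clone reached 1 FPKM. CLDN2 had log2 ratios of -1.91 (clone 1) and -1.74 (clone 2), a mean of -1.82 ± 0.12 (SD over clones, n = 2). In clone 1, 1 of the 7 claudins passed 2-fold either way, against 2.02% of the 11675 genes tested, and in clone 2 again 1 of 7, against 2.06%. CLDN2 was in both cases the claudin concerned. Genes at least 2-fold lower in both clones made up 0.206% of all tested and those 2-fold changed either way 0.325%, against 1 of 7 claudins, and nothing is read from this since CLDN2 was selected on that contrast.

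Many of the genes that share this pattern were short RNAs with few reads, so CLDN2 was also placed among protein-coding genes. Of the 10050 protein-coding genes tested, 0.0199% were at least 2-fold lower in both clones, namely CLDN2 and RARRES2, the gene of the secreted protein chemerin. None of the 10050 had a lower mean ratio than CLDN2, while 12 were lower in clone 1 and 7 in clone 2. This rank describes CLDN2 only and nothing is read from it, since CLDN2 was selected on that contrast. By distance between the pairs of log2 ratios over the 2 clones, the 5 genes nearest to CLDN2 were the microRNA genes MIR6783, MIR4771-2 and MIR548AA1, the small RNA gene RF00019 and ENSG00000263933, at distances of 0.133 to 0.468. The 4 of them with known length had between 8 and 13 reads in the control. The nearest protein-coding gene, looked up after the values were seen, was RARRES2 at a distance of 1.00, with 10.2 FPKM in the control, 3.95 FPKM in clone 1 and 4.40 FPKM in clone 2. CRABP2, PCP4, EFHD1 and IGFL2 followed at 1.22 to 1.30, each with a change that was at least 2-fold in 1 of the clones only.

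**Figure D2:**
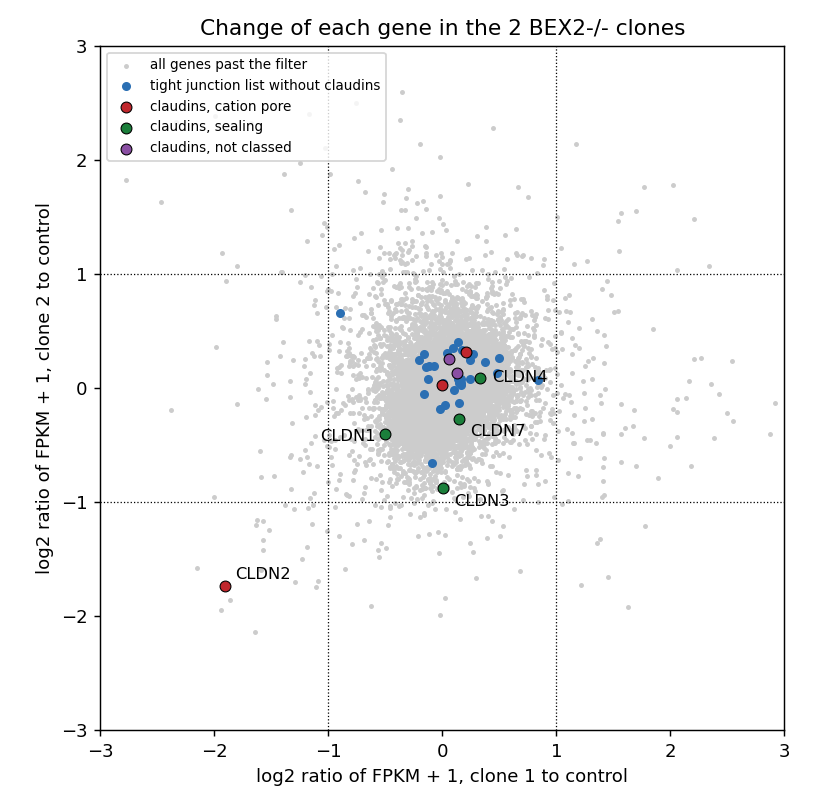
Log2 ratio of FPKM + 1 to the control in clone 1 (horizontal) and clone 2 (vertical) for 11675 genes (grey; 15 lie outside the axes), tight junction genes (blue) and the 9 claudins by class, with dotted lines at 2-fold; both axes share the control library. CLDN2 stands at -1.91 and -1.74, and the other claudins lie inside the lines.

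Genes around CLDN2 on chromosome X were listed within 300 kb, to show whether the level of the region as a whole moved. MORC4, a chromatin protein gene that overlaps CLDN2 on the opposite strand without sharing exon bases, was 11.9 FPKM in the control, 9.47 FPKM in clone 1 and 8.74 FPKM in clone 2. RBM41, an RNA-binding protein gene 134 kb away, was 1.45, 1.96 and 2.20 FPKM, and NUP62CL, 193 kb away, was 1.92, 1.90 and 1.54 FPKM. TBC1D8B, 24.0 kb away and below the filter, was 0.579, 1.17 and 0.842 FPKM, and each remaining gene of the window was at or below 0.221 FPKM in every library. The 365 tested genes of chromosome X had medians of 0.02 (clone 1) and 0.01 (clone 2) on the log2 scale. RIPPLY1 shares 341 nt of exon with CLDN2 on the opposite strand, or 10% of the CLDN2 exons. It was at or below 0.0708 FPKM in every library, and an exchange or loss of reads in the shared stretch was not tested. Whether the counting used strand was not stated.

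CLDN15 (ENSG00000106404, minus strand of chromosome 7, from 101232092 to 101238820) forms sodium channels in the gut. It had 5.02 FPKM in the control, 5.93 FPKM in clone 1 and 6.48 FPKM in clone 2, from 689, 611 and 894 reads. Both clones lay above the control, by 1.18-fold (95% interval 1.06 to 1.32) and 1.29-fold (1.17 to 1.43). The 2 pore formers thus had levels in the control whose intervals overlapped, and in the clones CLDN2 was below CLDN15 by a wide margin. The quotient of CLDN2 to CLDN15 within a library was 1.07 in the control, 0.118 in clone 1 and 0.141 in clone 2. Of the summed pore formers, 10.4 FPKM in the control, 6.63 FPKM in clone 1 and 7.41 FPKM in clone 2, CLDN15 made up 48.2% in the control, 89.4% in clone 1 and 87.4% in clone 2.

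CLDN16 (ENSG00000113946), needed for magnesium reabsorption in the kidney, was listed at 0 in the control and in clone 1 and had 3 reads, or 0.0175 FPKM, in clone 2. Taken as up to 3 reads, a count of 0 allows 0.0176 FPKM in the control and 0.0235 FPKM in clone 1. The exact Poisson limits were 0.0217 and 0.0289 FPKM, so no difference was detectable at this depth. In GENCODE 29 it runs from 190322541 to 190412143 on chromosome 3, plus strand, which places it 65 nt from the end of the CLDN1 gene interval, whereas its first RefSeq start lies before that interval.

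Among the sealing claudins, CLDN7 and CLDN4 were the most abundant members in every library. CLDN7 (ENSG00000181885, minus strand of chromosome 17, from 7259903 to 7263983), a partner of EPCAM, had 36.2 FPKM in the control, 40.3 FPKM in clone 1 and 29.8 FPKM in clone 2. The clones lay on either side of the control, at 1.11-fold (95% interval 1.06 to 1.16) and 0.822-fold (0.786 to 0.860). CLDN7 shares 38 nt of exon with ELP5 on the opposite strand and 269 nt with AC003688.1 on the same strand. AC003688.1 was at 0 in every library. CLDN4 (ENSG00000189143, plus strand of chromosome 7, from 73799542 to 73832693), which with CLDN3 also serves as a receptor for a clostridial enterotoxin, had 27.8 FPKM in the control, 35.2 FPKM in clone 1 and 29.6 FPKM in clone 2. Both clones were above the control, by 1.26-fold (1.22 to 1.31) and 1.06-fold (1.03 to 1.10).

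CLDN3 (ENSG00000165215) lies 29.3 kb from CLDN4 on the opposite strand of chromosome 7, from 73768997 to 73770270. Its level was 9.96 FPKM in the control, 10.03 FPKM in clone 1 and 4.98 FPKM in clone 2, from 602, 455 and 303 reads. Clone 1 and the control did not differ beyond counting error, with a ratio of 1.01 (95% interval 0.890 to 1.14), whereas clone 2 was 1.998-fold lower than the control (1.74 to 2.30). On the log2(FPKM + 1) scale CLDN3 differed from the control by 0.01 in clone 1 and -0.87 in clone 2, so it did not pass 2-fold. Clone 2 against clone 1 gave a difference of -0.88 on this log2 scale, the largest between the clones among the 9 claudins. None of the 7 tested passed 2-fold there, against 4.19% of all genes. Without the pseudocount CLDN3 was 2.01-fold lower in clone 2 than in clone 1 (95% interval 1.74 to 2.34).

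CLDN1 (ENSG00000163347, minus strand of chromosome 3, from 190305701 to 190322475), needed for the barrier of the skin, was the least abundant sealing member. It had 1.29 FPKM in the control, 0.614 FPKM in clone 1 and 0.732 FPKM in clone 2, from 224, 80 and 128 reads. Both clones were below the control, by 2.10-fold in clone 1 (95% interval 1.62 to 2.75) and by 1.76-fold in clone 2 (1.41 to 2.20). On the log2(FPKM + 1) scale these differences were only -0.50 and -0.40. CLDN1 was thus the claudin of the sealing class that, like CLDN2, lay below the control in both clones beyond counting error.

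CLDN12 (ENSG00000157224), linked to calcium passage between cells, and CLDN23 (ENSG00000253958), a less studied member, were in neither class. CLDN12 had 3.53 FPKM in the control, 3.96 FPKM in clone 1 and 3.95 FPKM in clone 2, or 1.12-fold the control in both clones (95% intervals 1.03 to 1.22 and 1.03 to 1.21). On the same strand CLDN12 shares 347 nt of exon with GTPBP10, 371 nt with AC006153.1, 276 nt with AC002456.2 and 201 nt with CDK14. CLDN23 had 0.903 FPKM in the control, 0.984 FPKM in clone 1 and 1.28 FPKM in clone 2, from 93, 76 and 132 reads. Clone 1 did not differ from the control beyond counting error (ratio 1.09, 0.794 to 1.49), and clone 2 was 1.41-fold higher (1.07 to 1.86).

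In the order of levels, CLDN7, CLDN4 and CLDN3 led in the control and in clone 1. CLDN2 came 4th in the control, with an interval that overlapped that of CLDN15 behind it. In both clones CLDN2 came 7th, between CLDN23 and CLDN1. Its quotient to CLDN23 was below 1 beyond counting error, with intervals of 0.522 to 0.969 in clone 1 and 0.568 to 0.908 in clone 2. The intervals of its quotient to CLDN1 included 1 in both clones. In clone 2 CLDN7 and CLDN4 did not differ beyond counting error, and CLDN15 had moved ahead of CLDN3. The 9 claudins summed to 90.1 FPKM in the control, 97.7 FPKM in clone 1 and 77.7 FPKM in clone 2, so the sum in the clones lay on either side of the control. CLDN2 made up 5.98% of that sum in the control, 0.717% in clone 1 and 1.18% in clone 2.

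The comparison of CLDN2 with the sealing claudins was made within each library, where it does not depend on the scaling between libraries. The sealing claudins summed to 75.3 FPKM in the control, 86.1 FPKM in clone 1 and 65.0 FPKM in clone 2, and CLDN2 equalled 7.16%, 0.813% and 1.41% of these sums. The quotient of CLDN2 to CLDN4 was 0.194 in the control (95% interval 0.180 to 0.208), 0.0199 in clone 1 (0.0161 to 0.0247) and 0.0310 in clone 2 (0.0263 to 0.0364). The quotient to CLDN7 was 0.149, 0.0174 and 0.0308 in the same order. The quotients of both clones lay below the control for each of the 4 sealing claudins, without overlap of the intervals.

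The size of the shift differed by the sealing claudin used. Relative to the control, the quotient was lower by 9.73-fold in clone 1 and 6.25-fold in clone 2 for CLDN4, and by 7.75-fold and 2.95-fold for CLDN3, which was itself lower in clone 2. For CLDN1 the quotient was 4.18 in the control, 1.14 in clone 1 and 1.25 in clone 2, or 3.66-fold and 3.34-fold lower. Thus CLDN2 exceeded CLDN1 in the control and was close to it in the clones, where the intervals of the quotient included 1 (0.841 to 1.55 and 0.987 to 1.58).

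Clone 1 had a median of 0.08 for the log2 ratios of the 4 sealing claudins and clone 2 a median of -0.34, and the value was -0.25 when each gene was first averaged over the clones. The clones differed in sign, with an SD of 0.30 (n = 2), so the sealing class had no common direction. CLDN2 differed from this median by -1.99 on the log2 scale in clone 1 and by -1.40 in clone 2 (SD 0.42, n = 2). Against the median of the averaged ratios its difference was -1.58. Among the sealing claudins past the filter on low values, CLDN3, CLDN4 and CLDN7, the averaged median was -0.06.

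The family list of 24 claudins adds 15 genes to the 9, of which CLDN5, known from the endothelial barrier, was the only 1 past the filter. CLDN5 had 1.41 FPKM in the control, 1.49 FPKM in clone 1 and 1.57 FPKM in clone 2, with ratios whose intervals included 1. In all, 8 of 24 claudins were tested, of which 5 were above and 1, CLDN2, below the control in both clones. Over all genes tested, 32.4% were above and 27.7% below in both, and all of these comparisons share the 1 control library. The median log2 ratio of these 8 was 0.10 in clone 1 and 0.09 in clone 2, beside 0.04 and -0.01 over all genes tested. CLDN8, CLDN10, CLDN17, CLDN22 and CLDN25 had no read in any library.

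Low claudins were also read without a pseudocount, with a floor of 3 reads for lower values and no filter. On that scale 3 of the 19 claudins with a read in any library, CLDN2, CLDN6 and CLDN9, were at least 2-fold lower in both clones. Over the 27739 genes with a known length and a read the share was 1.94%, and no claudin was at least 2-fold higher in both. Nothing is read from this, since CLDN2 was selected on this contrast and genes with few control reads cannot be called lower under that floor. CLDN9, known from the inner ear, had 86 reads in the control, 21 in clone 1 and 15 in clone 2, or 0.884, 0.288 and 0.153 FPKM. Its level was 3.07-fold lower in clone 1 (95% interval 1.89 to 5.21) and 5.77-fold lower in clone 2 (3.31 to 10.7). CLDN6, best known from embryonic epithelia, lies 206 nt from CLDN9 on the opposite strand of chromosome 16 and had 10 reads in the control, 1 in clone 1 and 0 in clone 2. With the 0 of clone 2 set to the floor of 3 reads, its level there was 3.35-fold lower. The exact 95% upper limit of the ratio of clone 2 to the control was 0.444. For clone 1 that ratio was 0.133, with an interval of 0.00307 to 0.937. CLDN20 had 1, 2 and 18 reads and CLDN24 had 0, 3 and 13, so the highest counts of both were in clone 2.

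The other genes of the tight junction followed a list of 40 membrane, scaffold, polarity and signalling genes, of which 30 were tested. On the log2(FPKM + 1) scale none of the 30 was at least 2-fold changed in either clone. Of the 30, 17 were above and 3 below the control in both clones, beside the 32.4% and 27.7% of all genes tested, and both clones were set against the same control. The medians of their log2 ratios were 0.12 (clone 1) and 0.11 (clone 2). Occludin (OCLN), a strand protein, had 2.23 FPKM in the control, 3.51 FPKM in clone 1 and 2.55 FPKM in clone 2. The scaffold ZO-1 (TJP1), which binds the tails of claudins, had 7.18, 7.70 and 9.43 FPKM, and the adhesion molecule JAM-A (F11R) had 11.3, 11.2 and 9.82 FPKM. Of these 3 genes, the clone farthest from the control was clone 1 for OCLN, at 1.57-fold.

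The highest mean ratios of the list were those of TJP3 (ZO-3), CRB3 and OCLN, at 0.46, 0.38 and 0.31 on the log2 scale, and the lowest those of LSR, AMOTL2 and TJAP1, at -0.38, -0.12 and -0.11. TJP3, a further scaffold, had 6.85 FPKM in the control, 13.0 FPKM in clone 1 and 7.26 FPKM in clone 2. LSR, which marks contacts of 3 cells, had 55.2, 51.7 and 34.6 FPKM, so that like CLDN3 it was lower mainly in clone 2. AMOTL2, an angiomotin, had 8.18 FPKM in the control, 3.92 FPKM in clone 1 and 13.4 FPKM in clone 2 and was the only 1 of the 30 for which the clones were 2-fold or more apart on the log2(FPKM + 1) scale. Without the pseudocount its level in clone 1 was 0.479 of the control (95% interval 0.442 to 0.519).

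**Figure D3:**
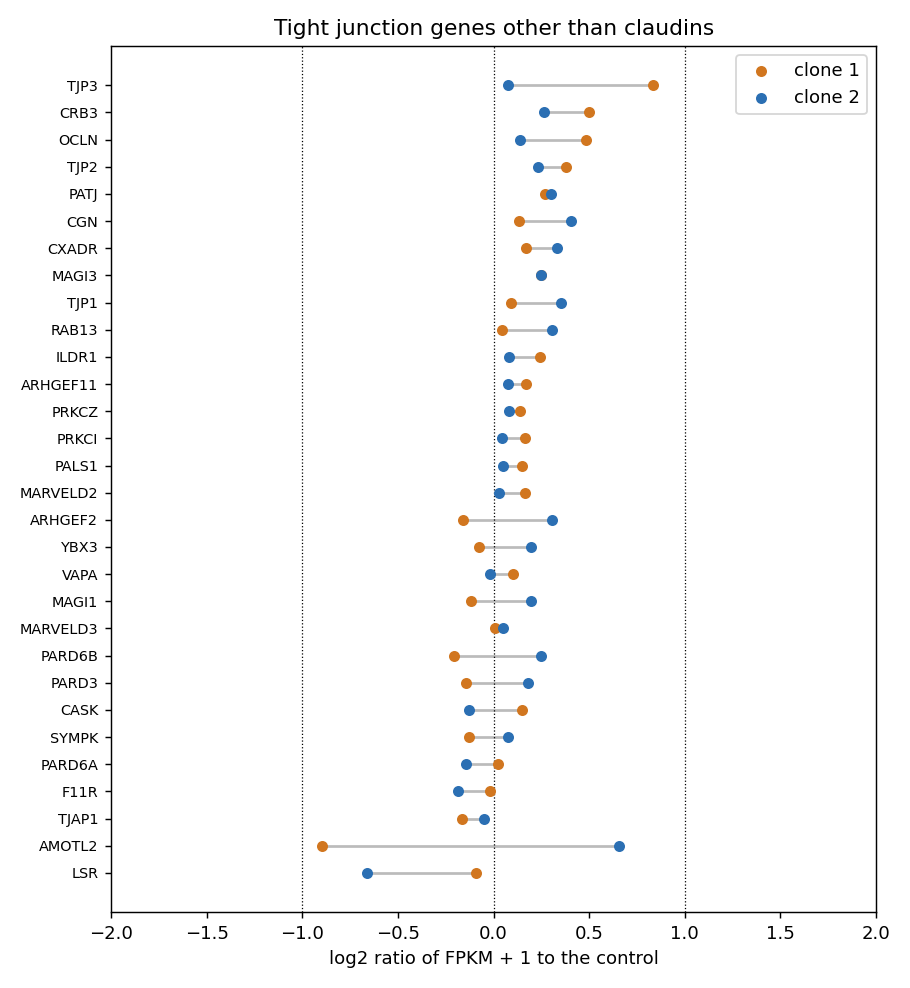
Log2 ratio of FPKM + 1 to the shared control for the 30 tested tight junction genes other than claudins, in clone 1 (orange) and clone 2 (blue), ordered by the mean; dotted lines mark 0 and 2-fold. All points lie inside the 2-fold lines, with AMOTL2 at -0.90 in clone 1 and 0.65 in clone 2.

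Proteins that bind claudins or act on them were described by a list of 10 genes, of which 7 were tested and none passed 2-fold in either clone on the log2(FPKM + 1) scale. The inhibitor gene SPINT2 and EPCAM were among the lowest of the list, at a mean log2 ratio of -0.10 and -0.09. The highest were the kinase genes SGK1 and WNK1 and the inhibitor gene SPINT1, at 0.68, 0.28 and 0.16, with SGK1 at 1.15 FPKM in the control, 1.91 FPKM in clone 1 and 3.08 FPKM in clone 2. Without the pseudocount, SGK1 in clone 2 was 2.69-fold the control (95% interval 2.44 to 2.97).

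Transcription factors known for claudin or junction genes formed a list of 23, of which 15 were tested and none passed 2-fold in either clone on the same scale. Low mean log2 ratios were those of SNAI1, a repressor of epithelial genes, at -0.40, and of OVOL2 at -0.27. The highest were those of KLF4 at 0.65, HNF4A at 0.39 and ELF3 at 0.33. CDX2, an intestinal factor known to act on the CLDN2 gene, had 33.3 FPKM in the control, 43.2 FPKM in clone 1 and 24.0 FPKM in clone 2. Its part in the level of CLDN2 was not tested.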

How the data were processed

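The authors sequenced 3 libraries, prepared with Illumina TruSeq chemistry: 1 of DLD1 control cells and 1 of each BEX2-/- clone. FPKM values of 60504 Ensembl genes were deposited in a single table by the authors. The submitters' processing notes name Trim Galore 0.3.7, STAR 2.5, Cufflinks 2.2.1, DESeq 1.22.1 and the build hg19, and the gene annotation is not given in the sources used here. Symbols, GRCh38 positions and merged exon lengths were taken by identifier from GENCODE release 29, which holds 56996 of the genes and lacks 3508. Upstream sequences came from RefSeq (GRCh38.p14) and matched 8 of the 9 claudins.

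Each clone was compared with the control by log2 of (FPKM + 1), for genes whose control value and averaged clones together gave a mean of 1 FPKM or more, and at least 2-fold in both clones was called a change. No p-value was computed, because the control has 1 library. The members and lists were chosen with earlier results of these data known. The genes named were the 9 claudins, any other claudin past the filter or changed in both clones, the 3 highest and 3 lowest tested genes of each list, TJP1, OCLN, F11R, EPCAM and CDH1, and the 5 genes nearest to CLDN2 by Euclidean distance. Others were named after their values were seen, and results for some genes of the lists are left out.

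FPKM was multiplied by exon length and by the depth at which low values (under 200 reads) came within 0.02 of whole numbers, which held for 98.6% to 98.7% of them in genes with a single transcript and for 87.8% to 88.1% in other genes. Depths were 47458851 reads in the control, 35593989 in clone 1 and 47722374 in clone 2. Zeros were taken to allow 3 reads. Intervals for quotients used the normal approximation on the log scale. The calling step was tested on simulated data.

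The alternatives were a pseudocount of 0.1 FPKM, median ratio scaling, TPM, no filter, a minimum mean of 5 FPKM, a threshold of 1.5-fold, and leaving out each clone. Ratios without a pseudocount, protein-coding genes alone and sealing claudins past the filter were added after seeing the data. Computation used pandas 2.3.3, numpy 2.4.6 and scipy 1.17.1 under Python 3.11.15, and plots used matplotlib 3.10.9.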

Additional observations from a re-analysis of the deposited data

How the results depend on the processing

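The lower level of CLDN2 in both clones kept its direction under all alternatives run. As CLDN2 was selected on this contrast and the alternatives reuse the same libraries, nothing is read from the kept direction. The size did move. The mean log2 ratio of CLDN2, -1.82, became -2.61 with a pseudocount of 0.1 FPKM, -2.35 with TPM and -2.75 without a pseudocount. The difference between CLDN2 and the sealing median, -1.58, became -2.33, -2.14 and -2.47 under the same settings, and ranged from -1.99 to -1.40 when a clone was left out. A mean of at least 5 FPKM removed CLDN2, whose mean was 3.10 FPKM, and took the number of claudins called from 1 to 0, the only setting that did. The sealing median of -0.25 had no stable sign, reversing to 0.080 without clone 2 (replicate 2) and reaching -0.34 without clone 1 (replicate 1). CLDN3 was -0.87 without clone 1 and 0.010 without clone 2, and CLDN7 was -0.27 and 0.15, and CLDN7 was 0.0023 with TPM. The median log2 ratio of all genes was 0.10 in clone 1 and 0.05 in clone 2 with TPM, and 0.04 and -0.01 as deposited. The number of genes changed in both clones, 38, became 88 with a pseudocount of 0.1 FPKM, 72 with TPM, 6 at a mean of at least 5 FPKM, 137 at 1.5-fold, 85 without a pseudocount and 4 among protein-coding genes, and lay between 250 and 255 with a single clone. No gene of the tight junction list was called under any alternative.

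No paired analysis was possible because the control has 1 library and shares fewer than 2 replicate numbers with the clones. Counting error is smallest for CLDN4 and CLDN7 and leaves CLDN16, CLDN6, CLDN20 and CLDN24 with too few reads to order the libraries firmly.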

Other observations

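Genes of adherens junctions and desmosomes, the other contacts between epithelial cells, were described by a list of 15, of which 14 were tested. None of the 14 was at least 2-fold changed in both clones on the log2(FPKM + 1) scale. Of the 14, 10 were above and 2 below the control in both, beside 32.4% and 27.7% of all genes tested. The untested gene, NECTIN3, lay below the filter, with 51 reads in the control, 222 in clone 1 and 164 in clone 2. Without the pseudocount NECTIN3 was 5.80-fold the control in clone 1 (interval 4.26 to 8.03) and 3.20-fold in clone 2 (2.32 to 4.47). The median log2 ratio of the 14 was 0.35 in clone 1 and 0.34 in clone 2, beside 0.04 and -0.01 over all genes tested. E-cadherin (CDH1), the adhesion molecule of the adherens junction, had 42.6 FPKM in the control, 53.9 FPKM in clone 1 and 50.5 FPKM in clone 2.

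On the log2(FPKM + 1) scale the desmosomal cadherin DSC2 had the highest mean ratio of the 14 and alone passed 2-fold in a clone. It had 2.08 FPKM in the control, 6.87 FPKM in clone 1 and 3.36 FPKM in clone 2. CTNND1 (p120 catenin) had 24.4, 35.1 and 38.1 FPKM and the desmosomal cadherin DSG2 had 23.7, 34.9 and 31.2 FPKM, so both clones were above the control for each. The lowest mean log2 ratios were those of NECTIN1 at -0.21, PKP3 at -0.08 and PERP at 0.09. PERP, a desmosomal membrane protein, was 348 FPKM in the control, 223 FPKM in clone 1 and 616 FPKM in clone 2 and differed between the clones by more than 2-fold. These genes and CLDN2 were measured against the same single control library.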
